A study of Mus musculus with 18 samples.

Results

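The 41 genes described here encode parts of the axoneme, the microtubule core of the sperm tail, and of intraflagellar transport (IFT), the traffic that builds it. They were chosen by symbol from a list of axonemal parts and IFT subunits. The axonemal parts are dyneins and their assembly factors, central pair proteins, radial spokes, proteins bound to the doublet microtubules, and tektins. The rule names symbols and no values, but the choice was made with earlier results of these data known. All 41 were found among the 20979 genes of the table, 39 under the listed symbol and 2, Dnai1 and Dnai2, under the older symbols Dnaic1 and Dnaic2. RNA of whole testis from 10-week-old ICR mice, an outbred stock, was sequenced in 18 libraries, 3 in each of 6 groups.

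The control group carried no named treatment, and the AOS group received AOS at 10 mg/kg. HFD_STZ is the name used here for mice on a high fat diet with STZ, and HFD_STZ_AOS for the same diet and STZ with AOS at 10 mg/kg. HFD_STZ_AOS_FMT and HFD_STZ_control_FMT are the groups on the diet with STZ that were labelled with FMT of the 10 mg/kg AOS group and of the control group. The labels spell out none of the abbreviations AOS, STZ and FMT. In this field STZ usually stands for streptozotocin, which damages the insulin-producing cells of the pancreas, and FMT for the transfer of faecal microbiota. The stated purpose of the study was to explore what FMT does to testes damaged by the diet with STZ. No label says whether the 3 libraries of a group came from separate mice, so p-values measure the spread between these libraries, which may be technical.

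In mouse testis, axonemes are built in the haploid spermatids after meiosis. Dynein arms on the outer doublets produce the force of the beat, the central pair and the radial spokes regulate it, and ruler and tether proteins set the spacing of these complexes along the doublet. IFT trains carry axonemal cargo to the growing tip on kinesin and return on the dynein-2 motor. Transcription factors of the RFX family and FOXJ1 are known regulators of ciliary genes, and RFX proteins bind a palindromic DNA element called the X-box.

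Promoters of the members were read from RefSeq on build GRCm38.p6, from 250 bases before to 50 after each transcript start, and 33 of the 41 members had an entry. The degenerate X-box, searched on both strands, occurred in 8 of these 33 (24.2%), against 672 of 27025 genes with a promoter (2.49%). Among 89 other axoneme and IFT genes with an entry it occurred in 15 (16.9%). The 8 members were Spag16, Cfap45, Hydin, Cfap52, Cfap70, Cfap44, Ift57 and Tekt4. This was the most frequent among members of the motifs searched. For 6 of the 8, 60 bases that end with the match are given in the direction of transcription. Tekt4 was left out because its match began at the transcript start, and Cfap45 because its window lay mostly in an annotated untranslated region. Capitals mark the matching bases. The windows lie at chr1:69826821-69826880 (plus strand, Spag16), chr8:110266910-110266969 (plus strand, Hydin), chr11:67965645-67965704 (minus strand, Cfap52), chr14:20452224-20452283 (minus strand, Cfap70), chr16:44394726-44394785 (plus strand, Cfap44) and chr16:49699161-49699220 (plus strand, Ift57).
Spag16: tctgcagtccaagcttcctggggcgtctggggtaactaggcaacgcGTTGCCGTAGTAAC
Hydin: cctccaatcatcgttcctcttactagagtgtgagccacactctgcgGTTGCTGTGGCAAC
Cfap52: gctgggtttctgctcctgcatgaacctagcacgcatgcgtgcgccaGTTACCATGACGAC
Cfap70: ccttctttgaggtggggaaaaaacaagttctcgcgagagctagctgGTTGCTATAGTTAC
Cfap44: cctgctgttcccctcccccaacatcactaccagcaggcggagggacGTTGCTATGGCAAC
Ift57: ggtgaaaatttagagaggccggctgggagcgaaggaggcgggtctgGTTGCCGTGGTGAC
The matches began 103 bases before the transcript start in Spag16, 87 in Ift57, 27 in Cfap44, 21 in Hydin, 16 in Cfap52 and 12 in Cfap70. Shorter motifs, also searched on both strands, gave smaller counts. GTNNCCATG, the left part of an X-box, was in 2 of 33 members (6.06%; 5.42% of all genes), GTAAACA, a core bound by FOXJ1, in 3 (9.09%; 4.05%) and TGACGTCA, the cyclic AMP response element, in 1 (3.03%; 2.03%). The X-box search was added after the data had been seen, and a match describes letters, not binding.

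Levels are in RPKM, read counts scaled to gene length and library depth, so genes can be compared per length. The members were abundant: the median of their means over 18 libraries was 75.3 RPKM in the 40 members that passed a filter of 1 RPKM in at least 3 libraries, against 8.54 RPKM in all 13874 genes that passed. In 37 members every library was at 10 RPKM or more. Rsph4a, a radial spoke head gene of motile cilia, was the member that did not pass. It lay between 0.04 and 0.25 RPKM in all 18 libraries, while its relative Rsph6a, which is testis-rich, had a mean of 118 RPKM.

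**Figure D1:**
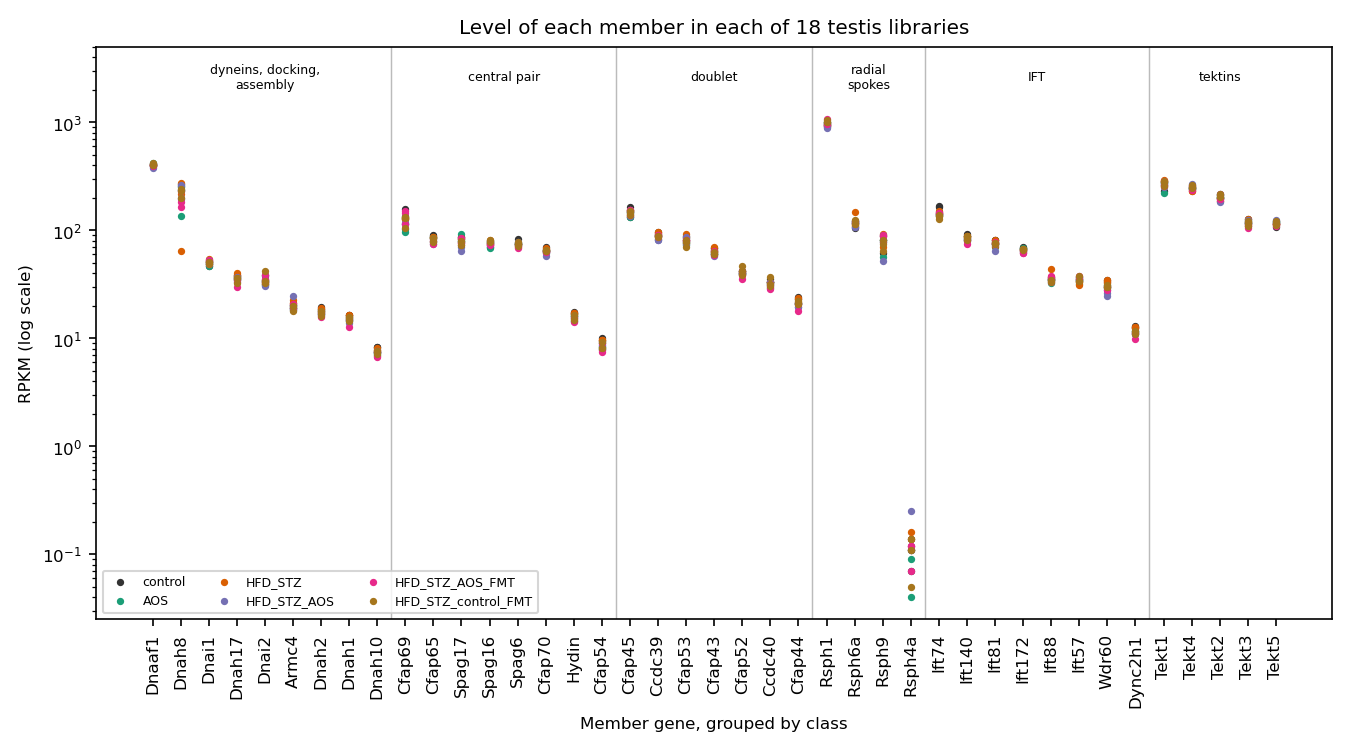
RPKM (log scale) of each of the 41 members, with 1 point per library coloured by group and members ordered by mean within their class. The points of most members nearly coincide, Dnah8 spreads over the widest range among the abundant genes, and Rsph4a lies under 1 RPKM in every library.

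Levels within a class differed far more than levels between groups. Dyneins, docking and assembly genes ran from Dnah10, an inner arm heavy chain, at a mean of 7.53 RPKM to Dnaaf1, a cytoplasmic assembly factor, at 405 RPKM. Between them lay the heavy chains Dnah1 (15.3), Dnah2 (17.6), Dnah17 (36.0) and Dnah8 (214), the intermediate chains Dnai1 (50.7) and Dnai2 (34.6), and Armc4 (20.2), which helps dock outer arms. Central pair genes ran from Cfap54 at 8.74 and Hydin at 16.0 RPKM, both very long projection proteins, through Cfap70 (64.8), Spag6 (74.9), Spag16 (76.4), Spag17 (79.8) and Cfap65 (83.2) to Cfap69 at 126 RPKM. Spag6 has a near-identical copy, Spag6l, at a median of 151.84 RPKM, and how reads were divided between the pair is not given in the sources used here.

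Doublet proteins ran from Cfap44, which with Cfap43 tethers an inner dynein to the doublet, at 21.3 RPKM to Cfap45, a protein inside the doublet lumen, at 148 RPKM. The rulers Ccdc39 and Ccdc40, which set the repeat length along the doublet, were at 89.5 and 32.5 RPKM, and Cfap52, Cfap43 and Cfap53 at 40.8, 63.3 and 80.8 RPKM. Rsph1, a spoke head protein, was the highest of all members at 977 RPKM, and Rsph9 was at 77.9. Among IFT genes Ift74, an IFT-B subunit that binds tubulin with Ift81, was highest at 144 RPKM. Dync2h1, the heavy chain of the return motor, was lowest at 11.7 RPKM. The other IFT-B subunits Ift81, Ift172, Ift88 and Ift57 were at 75.7, 66.3, 35.7 and 34.9 RPKM, the IFT-A subunit Ift140 at 85.0 and Wdr60, an intermediate chain of dynein-2, at 30.5. Tektins, filament proteins of the doublet, were all high: Tekt3 and Tekt5 lay at 118 and 117 RPKM, Tekt2 at 203, Tekt4 at 250 and Tekt1 at 270.

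The steps between low values put the depth at about 12000000 to 13800000 mapped reads a library, an estimate, since no count was used here. At that depth the tested members rested on about 900 (Armc4) to 46200 reads a library, with a counting error of 3.31% or less, while Rsph4a rested on about 5. Replicates agreed closely. The coefficient of variation within groups had a median of 4.25% over the tested members, against 5.15% over tested genes at 10 RPKM or more and 7.66% over all tested genes. It was under 10% in 38 of 40 members. The exceptions were Rsph9 (15.8%), which ranged from 52.16 to 91.83 RPKM with low libraries in several groups, and Dnah8 (23.3%).

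Dnah8, an outer arm heavy chain of sperm, was low in 2 libraries of different groups. It stood at 64.59 RPKM in HFD_STZ replicate 3 and 136.22 in AOS replicate 2, and between 163.58 and 272.78 (median 232) in the other 16. HFD_STZ replicates 1 and 2 were at 272.78 and 219.9 RPKM and AOS replicates 1 and 3 at 235.57 and 255.13, so a single library set the spread of each of these groups. The gene spans chr17:30624354-30877365 on the plus strand (GENCODE vM21). Its upstream neighbours Glo1 (chr17:30592861-30612659), a methylglyoxal-detoxifying enzyme, and Btbd9 (chr17:30215524-30582621) were lowest in the same libraries. Glo1 was at 12.82 and 21.94 RPKM there against 28.39 to 45.26 in the other 16, and Btbd9 at 20.84 and 28.51 against 30.28 to 38.69. These neighbours were looked at after the Dnah8 values had been seen. A segment with Glo1 is known to vary in copy number among laboratory mice. Copy number was not measured, and its part in these values was not tested.

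The groups were first compared over the 2 by 2 design of diet with STZ and of AOS. All differences are in log2(RPKM + 1), from 1 limma fit over the 18 libraries, with Benjamini-Hochberg adjustment over 13874 genes and a threshold of 0.05. With AOS (AOS and HFD_STZ_AOS against control and HFD_STZ), 4 members fell and 0 rose: Wdr60, Cfap43, Hydin and Dync2h1. Over all genes 2.34% were called, and 1.05% were called lower. Of the calls over all genes 180 were higher and 145 lower, and 149 and 65 after scaling by median ratios, which divides each library by the median of its ratios to the mean level of each gene. In the same comparison 34 of 40 members had a lower mean (85%, against 57% of all tested genes), and their median difference was -0.089 against -0.019. Scaling by median ratios turned 6 of the 34 to just above 0: Dnai1, Armc4, Dnaaf1, Spag6, Cfap52 and Tekt3. At an unadjusted p under 0.05, 18 members were lower and 0 higher, where 12.1% and 8.59% of all genes were. In bulk tissue, fewer cells of a type and less RNA per cell cannot be told apart.

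Wdr60 (chr12:116206262-116263022, minus strand) showed the largest called difference. Its levels were 33.07, 34.5 and 29.85 RPKM in control libraries, 34.2, 32.39 and 34.92 in HFD_STZ, 29.46, 31.55 and 30.73 in AOS, and 28.13, 26.4 and 24.49 in HFD_STZ_AOS. All HFD_STZ_AOS libraries lay under every control and HFD_STZ library, while AOS libraries overlapped control replicate 3. The mean AOS difference was -0.22 ± 0.042 (SE, adjusted p = 0.0272). HFD_STZ_control_FMT, whose label names no AOS, was at 30.09, 31.42 and 30.21 RPKM, under every HFD_STZ library but overlapping control.

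Cfap43 (chr19:47736857-47919287, minus strand), the doublet tether, read 69.39, 68.53 and 66.05 RPKM in control, 70.66, 64.67 and 63.67 in HFD_STZ, 60.2, 63.88 and 61.71 in AOS, and 57.8, 60.91 and 60.8 in HFD_STZ_AOS. AOS replicate 2 just passed HFD_STZ replicate 3, and otherwise the libraries with AOS were all lower. The difference was -0.14 ± 0.031 (adjusted p = 0.0384). HFD_STZ_control_FMT, without AOS in its label, was at 61.13, 62.57 and 60.61 RPKM, also under every control and HFD_STZ library.

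Hydin (chr8:110266977-110610253, plus strand), whose loss in mice causes hydrocephalus, stood at 17.69, 17.33 and 16.88 RPKM in control and 17.27, 17.08 and 16.84 in HFD_STZ. It fell to 16.19, 16.19 and 16.18 in AOS and to 14.43, 15.55 and 14.42 in HFD_STZ_AOS, with no overlap. Its difference was -0.14 ± 0.036 (adjusted p = 0.0477). HFD_STZ_control_FMT, without AOS in its label, was at 14.96, 15.26 and 16.48 RPKM, also under every control and HFD_STZ library.

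Dync2h1 (chr9:6928503-7184446, minus strand) read 12.82, 12.95 and 12.43 RPKM in control and 12.68, 12.49 and 12.79 in HFD_STZ. Libraries with AOS lay at 10.89, 11.72 and 11.73 without the diet and 10.95, 11.59 and 11.31 with it, again with no overlap. The difference was -0.15 ± 0.037 (adjusted p = 0.0495). HFD_STZ_control_FMT, without AOS in its label, was at 11.05, 11.56 and 11.8 RPKM, also under every control and HFD_STZ library. Wdr60 and Dync2h1 are both subunits of dynein-2. The dynein-2 subunits Dync2li1, Wdr34 and Tctex1d2, which are no members, were tested and not called with AOS.

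**Figure D2:**
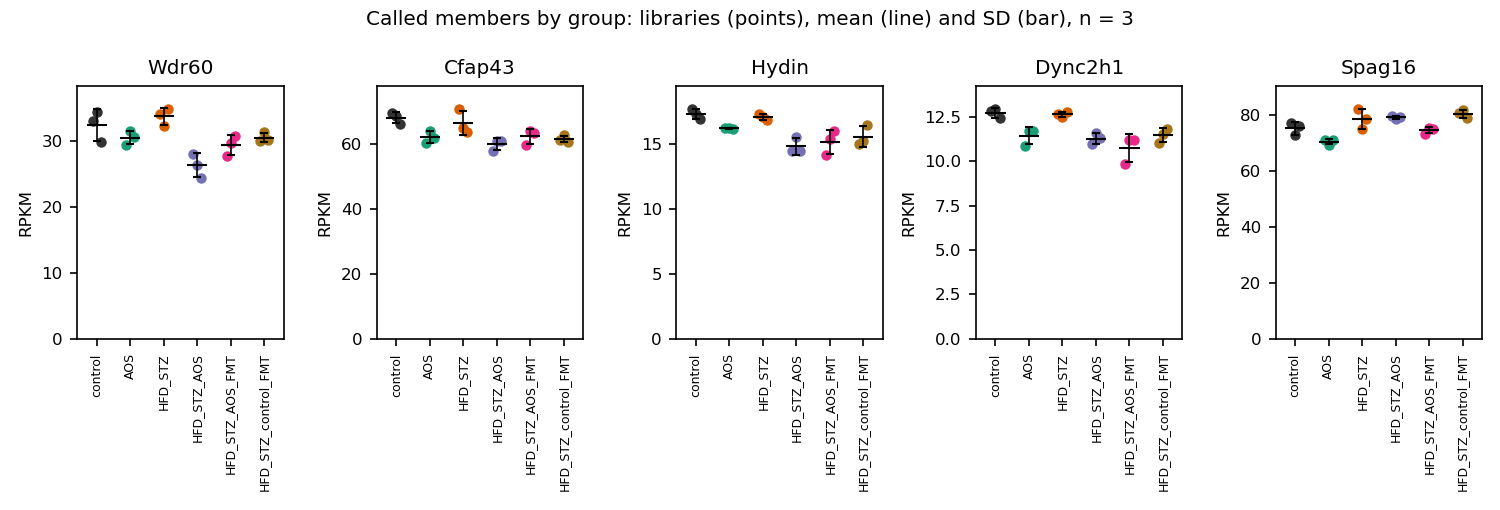
RPKM by group of the 5 members called in a comparison of the 2 by 2 design, with libraries as points, the group mean as a line and the SD as a bar (n = 3). Wdr60, Cfap43, Hydin and Dync2h1 are lower in AOS and HFD_STZ_AOS than in control and HFD_STZ, and Spag16 is lowest in AOS.

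Calls depended on the libraries and on scaling. Leaving out 1 of the 12 libraries left 0 to 4 members called: 0 without control replicate 1 or 2, AOS replicate 1 or 3, HFD_STZ replicate 1 or 2, or HFD_STZ_AOS replicate 1, and 2 without HFD_STZ replicate 3 or HFD_STZ_AOS replicate 3. In each of these fits the members' median stayed between -0.105 and -0.068. Scaling by median ratios left only Wdr60 called, and so did leaving out 4 libraries that hold over 100 RPKM of Crisp1, an epididymal gene (control replicate 3, HFD_STZ_AOS replicate 3, HFD_STZ_AOS_FMT replicate 3 and HFD_STZ_control_FMT replicate 2).

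By role, the AOS difference was spread over several structures. Of the 8 central pair genes, 8 had a lower mean with AOS (7 after scaling by median ratios), 1 was called, and the median difference was -0.116. All 7 doublet genes were lower (6 after scaling), with 1 called and a median of -0.122, and 7 of 8 IFT genes were lower, with 2 called and a median of -0.103. Members that just missed the threshold were Cfap54 (-0.19, adjusted p = 0.0516), Ccdc39 (-0.12, 0.0524), Ift140 (-0.12, 0.0598) and Cfap65 (-0.10, 0.0601).

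Dyneins, spokes and tektins gave smaller or mixed values. Of 9 dynein, docking and assembly genes, 8 had a lower mean (5 after scaling), 0 were called and the median was -0.022. Of the 5 axonemal heavy chains Dnah1, Dnah2, Dnah10 and Dnah17 lay between -0.133 and -0.104, with adjusted p of 0.0653 to 0.164, and Dnah8, which has the longest transcript of all members (16685 bases), at 0.072 ± 0.26 (0.91). In the intermediate chains and assembly factors the differences were -0.022 in Dnai2, -0.00052 in Dnai1 and -0.0094 in Dnaaf1. Among 3 tested spoke genes 2 were lower (median -0.042), and of 5 tektins 2 were lower and 3 higher, with a median of 0.058 and none called. Tekt2, Tekt4 and Tekt5 stood at 0.066, 0.058 and 0.061, with adjusted p of 0.301 to 0.378.

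Among the 103 tested of 106 other axoneme and IFT genes, 67 had a lower mean with AOS (65%, against 57% of all tested genes; 59 after scaling by median ratios), with a median of -0.032 against -0.019. Of these genes 3 were called lower and 2 higher, where 2.34% of all genes were called. Called lower were Dnah14 (-0.23 ± 0.042, adjusted p = 0.0235) and Dnah7b (-0.19 ± 0.044, 0.0409), dynein heavy chains, and Kif3b (-0.13 ± 0.030, 0.038), a motor subunit of the outward kinesin. Called higher were Dnal4 (0.14 ± 0.032, 0.0359), a dynein light chain, and Spaca9 (0.23 ± 0.053, 0.0409), a doublet lumen protein. These 5 were named after their values had been seen. Of 17 doublet inner protein genes outside the members, 7 were lower and 10 higher, with a median of 0.009, unlike the 7 doublet members; this difference was not tested.

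**Figure D3:**
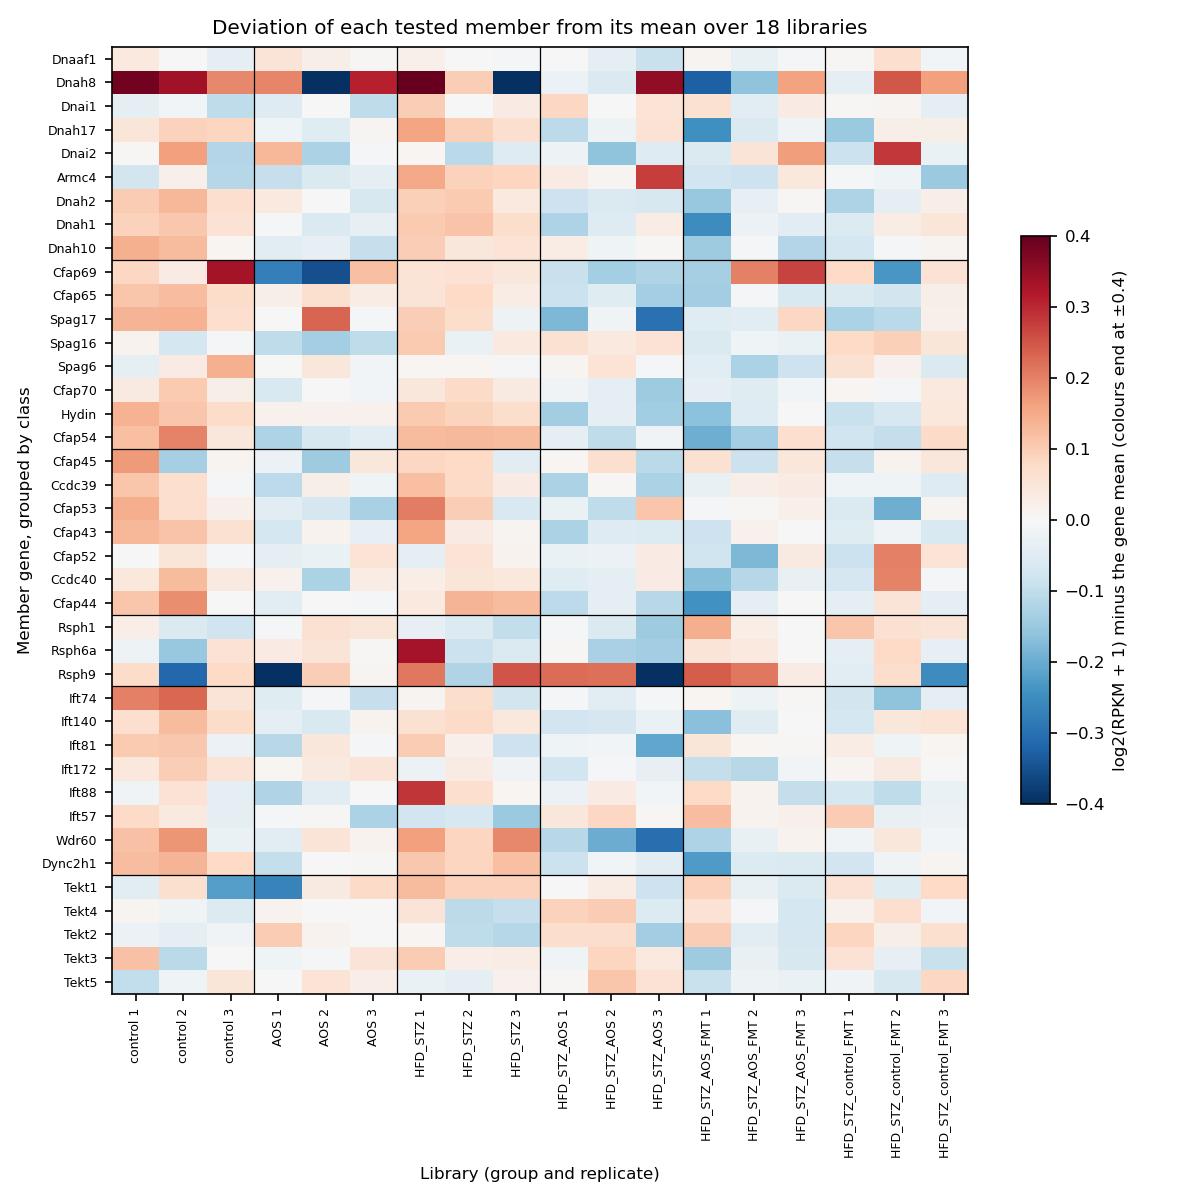
Deviation of each tested member (rows, grouped by class) from its own mean over 18 libraries, in log2(RPKM + 1), by library. Most members are above their mean in the 6 control and HFD_STZ libraries, and the darkest cells belong to Dnah8 and Rsph9.

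Transcript length moved with the AOS difference. Over 40 members the difference fell with the length of the longest annotated transcript (Pearson r = -0.47, Spearman rho = -0.58, across genes, which are not independent replicates). Over 13578 tested genes with a length r was -0.32. Of 14 members with transcripts over 5000 bases 13 had a lower mean, with a median of -0.127, and of 12 members under 2500 bases 8 did, with a median of -0.013. All tested genes showed the same order: 2685 genes over 5000 bases had a median of -0.067 and 78.9% were lower, while 5012 genes under 2500 bases had a median of 0.032. Of the 4 members called with AOS, Hydin (15783 bases) and Dync2h1 (14264 bases) are among the longest members. Cfap43 (5968 bases) is also over 5000 bases, and Wdr60 (3721 bases) is near the members' median of 3582.

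After each library's trend with length had been removed, 0 members and 0 of all genes were called, and 31 of 40 members had a lower mean (median -0.038). Wdr60 was then at -0.18 (adjusted p = 0.0856), Cfap43 at -0.082 (0.202), Dync2h1 at -0.053 (0.398) and Hydin at -0.043 (0.515). The part of transcript length in the AOS difference was not tested further.

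**Figure D4:**
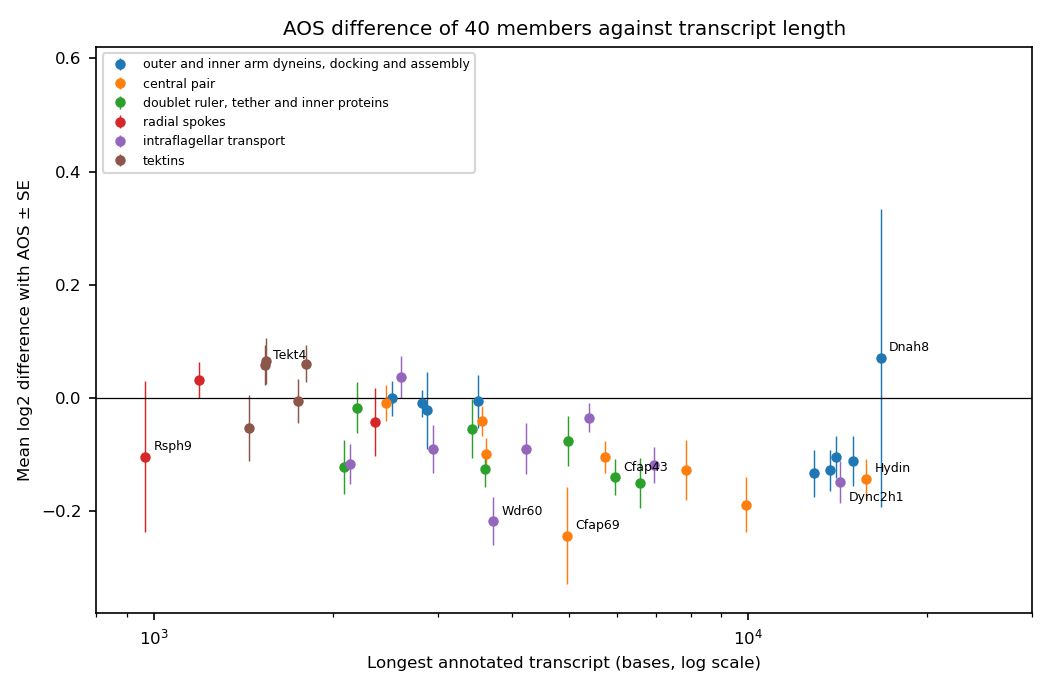
Mean log2 difference with AOS (± SE) of the 40 tested members against the length of the longest annotated transcript (log scale), coloured by class. Members over 5000 bases lie below 0 except Dnah8, whose error bar is wide, and 3 of the 5 tektins, all under 2500 bases, lie above 0.

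The same split appeared by library. The members' median deviation from their means was 0.021 to 0.08 in control, 0.031 to 0.098 in HFD_STZ, and between -0.067 and 0.011 in the other 12 libraries. The slope of all genes on length, in log2 per doubling, was 0.023 to 0.049 in control, 0.019 to 0.043 in HFD_STZ and between -0.069 and 0.007 elsewhere. Neither measure overlapped between those 6 libraries and the rest. Germ cell markers moved too. The summed level of 9 elongating spermatid markers, which mark the last steps before release, was 51524 to 58670 RPKM in control and HFD_STZ and 57568 to 68429 in the other groups. With AOS 8 of these 9 had a higher mean, with a median of 0.231, and Prm3, Tnp1 and Tnp2 were called higher (0.35, 0.25 and 0.29). Of 8 pachytene spermatocyte markers 7 were lower (median -0.071), with Sycp1 called (-0.25). Their summed RPKM, of which Ldhc (median 2376.75) made most, was instead higher without the diet, at 2930.61 to 3020.24 in control and 3042.84 to 3127.21 in AOS. With the diet the sum overlapped, at 2788.28 to 2973.93 in HFD_STZ and 2964.91 to 3122.38 in HFD_STZ_AOS. Of 8 round spermatid markers 7 were higher (median 0.072), with Tssk2 called (0.14). Leydig cell markers, genes of the steroid-producing cells, had a lower mean with AOS in 6 of 6, with a median of -0.245, 0 called and 2 at an unadjusted p under 0.05. Their summed level was 3503.71 to 4023.26 RPKM in control, 2560.2 to 3494.06 in AOS, 3626.39 to 4494.7 in HFD_STZ and 3549.01 to 4156.05 in HFD_STZ_AOS, so the groups overlapped with the diet and not without it. Of 5 macrophage markers 5 were lower (median -0.081), of 7 Sertoli cell markers 5 were higher (median 0.073) and of 6 tested spermatogonium markers 4 were higher (median 0.014), with 0 called in each list. The part of all these markers in the members' difference was not tested.

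**Figure D5:**
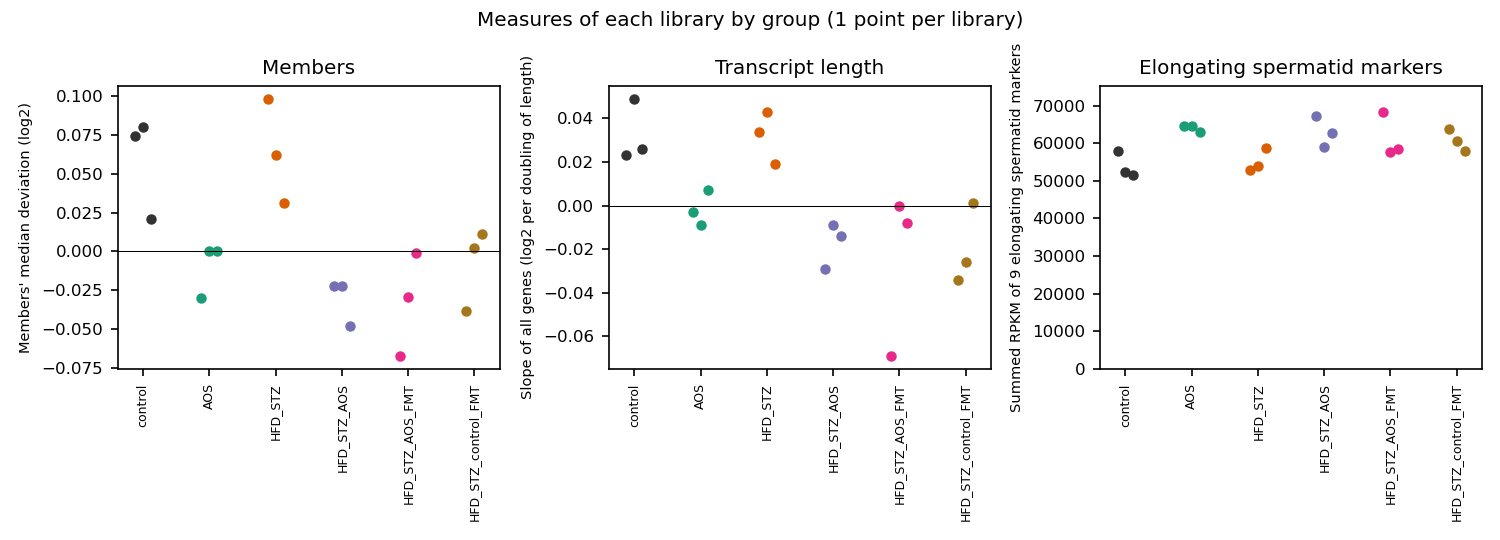
For each library by group, from left to right: the members' median deviation (log2), the slope of all genes on transcript length (log2 per doubling), and the summed RPKM of 9 elongating spermatid markers. Control and HFD_STZ libraries lie above the others in the first 2 panels and mostly below them in the last.

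Markers of ciliated and duct epithelia were checked in the same libraries. Mcidas, the switch gene of multiciliated cells, was at 0 in 6 libraries and at most 0.12 RPKM, and Gmnc lay between 0.05 and 0.26. Summed RPKM of 10 efferent duct and multiciliated markers was 126.68 to 149.26 over all libraries, of which Deup1 made 120.65 to 141.54. The summed epididymal markers ranged from 3.94 to 363.95 RPKM, with Lcn5 at 0 in 17 libraries and Lcn8 in 15. Among regulators of ciliary genes Rfx2 was at 133.4 to 147.73 RPKM, Foxj1 at 37.11 to 47.9 and Rfx4 at 40.98 to 45.21. With AOS, 0 of the 7 tested regulators were called.

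With the diet and STZ (HFD_STZ and HFD_STZ_AOS against control and AOS), 1 member rose and 0 fell, where 2.85% of all genes were called and 2.4% were called higher. Which member was called depended on scaling: after scaling by median ratios the 1 member called was Cfap65, and it was lower (-0.13, adjusted p = 0.0344). Over all genes, calls then went from 333 higher and 63 lower to 159 higher and 109 lower. Spag16 (chr1:69826970-70725132, plus strand), a central pair scaffold, read 77.02, 72.69 and 75.92 RPKM in control, 71.03, 69.32 and 70.99 in AOS, 82.17, 74.94 and 78.49 in HFD_STZ, and 79.6, 78.44 and 79.4 in HFD_STZ_AOS. HFD_STZ overlapped control, and HFD_STZ_AOS lay above all 6 libraries without the diet. The difference was 0.11 ± 0.026 (adjusted p = 0.0347). It was 0.077 (0.145) after scaling by median ratios, 0.116 (0.147) without the 4 Crisp1-high libraries, and its adjusted p passed 0.05 only without HFD_STZ replicate 2 (0.0229) or HFD_STZ_AOS replicate 2 (0.0288) when 1 of the 12 libraries was left out (up to 0.0814 otherwise).

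Armc4 followed, with 19.08, 20.45 and 18.52 RPKM in control, 18.81, 19.29 and 19.57 in AOS, 22.48, 21.52 and 21.41 in HFD_STZ and 20.62, 20.29 and 24.61 in HFD_STZ_AOS (0.17 ± 0.047, adjusted p = 0.0658). Only HFD_STZ_AOS replicate 2 fell inside the range without the diet. Dnai1 read 47.1 to 50.27 RPKM in control, 47.11 to 50.52 in AOS, 50.74 to 54.26 in HFD_STZ and 50.63 to 53.69 in HFD_STZ_AOS, with no overlap by diet (0.096 ± 0.030, adjusted p = 0.095). Both are outer arm genes, but Dnai2, another outer arm gene, went the other way. Its means were 35.0 and 34.6 RPKM in control and AOS, and 33.3 and 32.7 in HFD_STZ and HFD_STZ_AOS. Of the 9 dynein, docking and assembly members 5 had a lower mean and 4 a higher, with a median of -0.003. As a whole, 26 of 40 members had a lower mean (32 after scaling by median ratios), where 35.3% of all genes did, and the median was -0.016 against 0.032. At an unadjusted p under 0.05, 3 members were higher and 3 lower (14.3% and 4.42% of all genes). The lower 3 were Cfap65 (-0.089, adjusted p = 0.0988), Spag17 (-0.15, 0.125) and Ift172 (-0.069, 0.152). Of the other axoneme and IFT genes, Rsph14 (0.33), Hspb11 (0.32) and Ttc8 (0.21) were called higher and Cfap74 (-0.15) lower, named after their values had been seen.

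Comparisons of single groups called 0 members. They share libraries: control enters 2 of them and HFD_STZ 4, so their values are given side by side and not compared. In HFD_STZ against control, where 0% of all genes were called, 22 of 40 members had a lower mean (55%, all genes 40.5%). The members' median was -0.007 (all genes 0.023). After scaling by median ratios 8 members changed sign and 30 were lower (median -0.034), and with the length trend removed 29 were. In the other comparisons of single groups that scaling changed the sign of at most 4 members. Removing the length trend changed the sign of 7 members in HFD_STZ against control and of 10 in AOS against control. In HFD_STZ against control, at an unadjusted p under 0.05, 2 members were lower and 2 higher (2.13% and 6.16% of all genes). Ift74 did not pass the threshold at -0.16 ± 0.049 (adjusted p = 0.363), from 165.64, 168.8 and 149.17 RPKM in control to 145.21, 151.08 and 136.87. Ift57, the IFT-B subunit, was at -0.12 ± 0.052 (0.548). The higher pair were Armc4 at 0.17 ± 0.066 (0.508) and Dnai1 at 0.094 ± 0.043 (0.583). In Ift57, Armc4 and Dnai1 the groups did not overlap, and neither did they in Ift172 and Tekt1. The share of all genes without overlap was not counted in any comparison, so non-overlap is only a description of the values.

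In AOS against control, 0% of all genes were called, and 32 of 40 members had a lower mean (80%, all genes 59.8%). The members' median was -0.073 (all genes -0.029). Unadjusted, 10 were lower and 0 higher (8.4% and 5.46%). Ift74 was at 139.06, 143.07 and 134.9 RPKM in AOS, under every control library (-0.21 ± 0.049, adjusted p = 0.161). Cfap54, a central pair projection protein, was at 9.55, 10.15 and 9.02 RPKM in control and 7.92, 8.28 and 8.41 in AOS (-0.20 ± 0.068, 0.25), and Cfap43 differed by -0.13 ± 0.044 (0.244).

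In HFD_STZ_AOS against HFD_STZ, 0% of all genes were called, and 32 of 40 members had a lower mean (80%, all genes 52.3%). The members' median was -0.09 (all genes -0.007). Unadjusted, 13 were lower and 1 higher (6.26% and 6.23%). Wdr60 differed by -0.35 ± 0.060 (adjusted p = 0.0805), with no overlap between the groups, Hydin by -0.19 ± 0.050 (0.199) and Cfap65 by -0.14 ± 0.040 (0.199). Cfap65, another central pair protein, was at 86.13, 87.86 and 84.91 RPKM in HFD_STZ and 78.25, 80.28 and 75.56 in HFD_STZ_AOS. For the difference between the AOS effects with and without the diet, 0% of genes were called. Unadjusted, 2 members were higher and 1 lower (2.88% and 1.74%): Ift57 (0.21), Ift74 (0.19) and Wdr60 (-0.27), each with an adjusted p of 0.999.

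Both FMT groups also lay under HFD_STZ in most members. In HFD_STZ_AOS_FMT against HFD_STZ, where 0.0144% of all genes were called, 31 of 40 members had a lower mean (77.5%, all genes 56.3%). Of all tested genes over 5000 bases 78.9% were lower. The members' median was -0.079 (all genes -0.02). Unadjusted, 15 members were lower and 2 higher (8.14% and 6.31%). Dync2h1 was at 9.84, 11.22 and 11.19 RPKM against 12.68, 12.49 and 12.79 (-0.22 ± 0.053, adjusted p = 0.193). Dnah17 was at 30.1, 34.48 and 35.49 against 40.13, 38.46 and 37.59 (-0.21 ± 0.062, 0.216), and Dnah1 at 12.68, 14.99 and 14.78 against 16.48, 16.61 and 16.08 (-0.20 ± 0.058, 0.216). In these 3 motor genes the groups did not overlap, and replicate 1 was the lowest library of the FMT group.

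In HFD_STZ_control_FMT against HFD_STZ, where 0.00721% of all genes were called, 27 of 40 members had a lower mean (67.5%, all genes 58.9%). Of all tested genes over 5000 bases 80.5% were lower. The members' median was -0.075 (all genes -0.028). Unadjusted, 12 members were lower and 3 higher (10.1% and 6.06%). Rsph1 was higher at 1053.52, 1018.94 and 1011.84 RPKM against 954.47, 940.38 and 911.39 (0.14 ± 0.046, adjusted p = 0.182). Ift88, an IFT-B subunit whose loss blocks cilium assembly, was at 33.9, 33.21 and 35.03 against 43.68, 37.44 and 35.88 (-0.19 ± 0.063, 0.189). Armc4 was at 20, 19.86 and 18.07 RPKM, against 22.48, 21.52 and 21.41, and the range of control was 18.52 to 20.45 (-0.17 ± 0.066, 0.234).

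The 2 FMT groups, which differ by donor, were set against each other directly. Here 0.0216% of all genes were called, and 26 of 40 members had a lower mean with the AOS donor (65%, all genes 46.1%). The members' median was -0.032 (all genes 0.008). Unadjusted, 3 were lower and 0 higher (1.66% and 2.92%). Spag16 was at 73.29, 75.42 and 74.89 RPKM with the AOS donor and 80.67, 81.64 and 78.88 with the control donor, without overlap (-0.11 ± 0.037, adjusted p = 0.999). Ift172 and Ccdc40 differed by -0.088 and -0.15 (0.999 each). In a test over all 6 groups at once, 0.0432% of genes and 0 members were called. The smallest adjusted p among members were 0.0706 (Wdr60), 0.0783 (Cfap65) and 0.0783 (Spag16).

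Members did not rise and fall strongly together within groups. Over 780 pairs of tested members the median correlation of deviations from group means was 0.11, with 61.8% of pairs positive, against 0.03 and 53.0% over pairs of all tested genes. These are correlations across the 18 libraries, which share depth and length trends, and are given as a description.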

How the data were processed

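RNA of 18 testis libraries, 3 in each of 6 groups, was analysed from 1 deposited table. The labels' protocols name snap-freezing, Trizol with a column kit, total RNA and standard Illumina libraries. Bowtie 0.12.2 and mm10 are named in the submitters' processing notes. For counting tool, annotation and strand, the protocol is not given in the sources used here. Values in the table the authors deposited behave as RPKM. That unit was read from the values, whose smallest steps shrink with gene length and which sum to 588081 to 646822 a library. RPKM divides by a length that is the same in every library, so differences between libraries in coverage of long transcripts would remain. Coverage along transcripts was not measured.

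Of 20985 rows, 6 rows of 3 repeated symbols were left out; 22 rows bear dates as names, and 384 genes were at 0 in all libraries. Genes at 1 RPKM or more in at least 3 libraries (13874) were fitted as log2(RPKM + 1) with limma 3.58.1 in R 4.3.3, with an intensity trend and 1 coefficient per group (12 residual and 3.71 prior degrees of freedom). Tests were two-sided, with Benjamini-Hochberg adjustment over all fitted genes and a threshold of 0.05. The script was tested on simulated data. Depth was estimated from the smallest steps between values, within a range bounded in advance. Lengths are of the longest GENCODE vM21 transcript, known for 97.9% of fitted genes. Other tools were Python 3.11.15, numpy 2.4.6, pandas 2.3.3 and matplotlib 3.10.9.

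Values per library are given for members called in a comparison, for the 3 members with the smallest p in each, and in part for the highest and lowest of each class. Members, classes and lists were chosen with earlier results of these data known. Alternatives were median-ratio scaling, no filter, a pseudocount of 0.1, only the compared groups, robust empirical Bayes, replicate numbers entered as a block, removal of each library's trend on length (lowess, span 0.3), each library left out in turn and, added after the data had been seen, 4 Crisp1-high libraries left out.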

Additional observations from a re-analysis of the deposited data

Results flagged for a closer look

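The effect of the diet with STZ on Ift57, an IFT-B subunit, had opposite signs without and with AOS. Without AOS, Ift57 was at 36.85, 35.88 and 33.92 RPKM in control and lower in every HFD_STZ library, at 33.02, 33.35 and 31.42. With AOS it was, in the AOS group, at 34.75, 35.03 and 31.92 RPKM and higher in every HFD_STZ_AOS library, at 36.07, 37.04 and 35.05. The difference between these effects was 0.2084 in log2(RPKM + 1) (SE 0.073), with an adjusted p of 0.999 in the limma fit over all genes, so it did not pass the threshold. Over all alternatives it ranged from 0.17 to 0.26, with adjusted p of 0.773 to 1. Ift57 was picked from the members for this pattern, and the share of all genes with such a pattern was not counted.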

How the results depend on the processing

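The members called in a comparison, or among its 3 smallest p, gave 31 results, recomputed 527 times over the alternatives; in these 0 signed differences changed direction, 66 times a call was lost and 1 time one was gained (Armc4 with the diet and STZ, 0.19, adjusted p = 0.033, without HFD_STZ_AOS replicate 2). Differences outside these results did change sign, and other members gained a call. With AOS 6 near 0 changed sign after median-ratio scaling and 5 with the length trend removed. In AOS against control 10 did with the length trend removed, among them Hydin (-0.090 to 0.011) and Dnah17 (-0.093 to 0.006). In HFD_STZ_control_FMT against HFD_STZ 4 did, among them Dnah1 (-0.089 to 0.027) and Dnah10 (-0.087 to 0.031). The members called with AOS numbered 4, and 1 with median-ratio scaling, 2 without the filter or with robust empirical Bayes, 10 with only the compared groups (Dnah1, Dnah2, Cfap54, Cfap65, Cfap44 and Ift140 besides the 4), 0 with the length trend removed, 1 without the Crisp1-high libraries and 0 to 4 with 1 library left out. All genes called with AOS went from 325 to between 0 and 569. With the diet and STZ 1 member was called, Spag16 (higher). With median-ratio scaling it was 1 other member, Cfap65 (lower), and with the length trend removed 2 others, Cfap65 (-0.12) and Rsph1 (-0.11), both lower. None were called (0) with only the compared groups or without the Crisp1-high libraries, and 0 to 3 with 1 library left out. Median-ratio scaling moved the members' median to -0.045 in AOS against control, -0.042 in HFD_STZ_control_FMT against HFD_STZ and -0.052 with the diet and STZ. Removing the length trend moved it to -0.02, -0.009 and -0.05 in these, to -0.057 in HFD_STZ_AOS against HFD_STZ, to -0.041 in HFD_STZ_AOS_FMT against HFD_STZ and to -0.038 with AOS. With 1 library left out it was -0.126 to -0.046 in HFD_STZ_AOS and -0.093 to -0.044 in HFD_STZ_AOS_FMT, each against HFD_STZ. The cause was not tested, except that omitted libraries leave fewer to estimate the spread.

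Whether the replicate numbers pair the samples was not settled. Deviations of same-numbered libraries correlated at -0.25 to 0.41 (mean 0.046, other numbers -0.022), and 8 of 18 libraries correlated best with their own number. With the replicate number as a block, 6 members were called with AOS (not Hydin, but Cfap54, Ccdc39 and Ift140) and 1 with the diet and STZ. Depth limits the untested Rsph4a.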

Other observations

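Rsph3a and Rsph3b, near-identical copies of a radial spoke gene on chromosome 17 that are no members, varied in opposite directions. Rsph3a ranged from 140.76 to 251.72 RPKM and Rsph3b from 12.42 to 115.93, while their sum stayed between 239 and 276. In AOS replicate 2, a library low in Dnah8, Rsph3a was at 140.76 and Rsph3b at 115.93, and in HFD_STZ replicate 3, the library lowest in Dnah8, they were at 247.48 and 14.37. How reads were divided between the copies is not given in the sources used here, so the level of each is uncertain. These genes were chosen after their values had been seen.

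Some members differed little between any libraries: Dnaaf1 ranged from 380.62 to 424.58 RPKM and Tekt4 from 232.07 to 267.64 over all 18 libraries. Dnah5, Dnah9 and Dnah11, heavy chains of airway and nodal cilia, were at 0.18 to 0.39, 0.76 to 1.04 and 0.44 to 1.05 RPKM, against 64.59 to 272.78 for Dnah8.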
